A study of Mus musculus with 71 samples.

Results

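Heart muscle contracts when myosin of the thick filament pulls on actin of the thin filament inside the sarcomere, a repeat unit bounded by Z-discs. Calcium released through the ryanodine receptor binds the troponin complex and opens the thin filament, and the pump of the sarcoplasmic reticulum takes the calcium back. Cardiomyocytes also make natriuretic peptides, and the genes for all of these proteins are used as markers of heart muscle. The 35 genes described here were chosen as contractile, calcium-handling and other muscle genes of the cardiomyocyte, out of 37620 genes in the deposited count table. They were followed in hearts of mouse embryos of 8 genotypes. Tail buds and embryo remainders of the same genotypes were used to check for heart tissue, or other muscle, outside the dissected heart.

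The embryos carried different alleles of miR-17~92, a microRNA cluster that is transcribed as 1 host RNA. All were of the C57BL/6 strain and were taken at embryonic day 9.5 (20 to 22 somites). Wild type embryos have the intact locus, and the full knockout lacks the whole cluster. In Δ17 the deleted microRNAs are miR-17 and miR-20a, in Δ19 they are miR-19a together with miR-19b-1, and Δ18 and Δ92 each lose a single one, miR-18a or miR-92a-1. Δ17,18 and Δ17,18,92 combine these losses, and no other allele is named in any group. The labels do not say whether an embryo carried 1 or 2 mutant copies, or whether tissues were pooled. There were 71 libraries in 24 groups of genotype and tissue. Every group held 3, apart from the Δ17,18,92 embryo remainder with 2. The series calls them biological triplicates, and p-values measure the spread between these libraries.

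MicroRNAs lower the level of messenger RNAs that pair with their seed, bases 2 to 8 counted from the 5′ end. The cluster holds 4 seed families, and the mature sequences are shown because each allele deletes whole families of this cluster. Below, lacking or losing a family means lacking the copies in this cluster. Any copies elsewhere in the genome were not examined. They come from RefSeq with build GRCm38.p6, plus strand, from mmu-miR-17-5p at chr14:115043684-115043706 to mmu-miR-92a-3p at chr14:115044476-115044496. Capitals mark the seed.
mmu-miR-17-5p: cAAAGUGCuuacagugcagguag
mmu-miR-20a-5p: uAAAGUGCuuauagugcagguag
mmu-miR-18a-5p: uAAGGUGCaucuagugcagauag
mmu-miR-19a-3p: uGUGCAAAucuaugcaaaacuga
mmu-miR-19b-3p: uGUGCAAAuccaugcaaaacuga
mmu-miR-92a-3p: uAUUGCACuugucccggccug
miR-17 and miR-20a share 1 seed, and miR-19a and miR-19b share another.

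Matches to these seeds were searched in the longest annotated 3′ untranslated region of each member, on the transcript strand. A match was either the complement of bases 2 to 8 (7mer-m8) or the same followed by an A (8mer). Of the 35 members, 5 (14.3%) had a match of any family, against 34.5% of 12359 genes with at least 1 CPM in heart (CPM are counts scaled to a common library size). The median length of the searched regions was 406 bases in the members and 1233 bases in those genes. Smyd1 and Tpm1 were the 2 members with a match to the miR-17 seed, 5.71% of the members against 15.0% of the expressed genes, and both matches were 8mers. They are shown because the test of miR-17 and miR-20a loss, described below, called Smyd1 in all 3 tissues and Tpm1 in tail bud and the rest. Capitals mark the 8mer in the transcript sense.
Smyd1: tttcctacaaaGCACTTTAtttgcagagtg
Tpm1: aaacacaccctGCACTTTAcgtcagggtgg
The Smyd1 match lies at bases 1636 to 1643 of a region of 1811 bases (chromosome 6), and the Tpm1 match at bases 865 to 872 of 1899 (chromosome 9). The 8mer was in 2 of 6 annotated coding transcripts of Smyd1 and in 1 of 16 of Tpm1, and the gene counts do not tell transcripts apart. Ldb3 (miR-19 and miR-92), Nebl (miR-18) and Slc8a1 (miR-18, miR-19 and miR-92) had 7mer-m8 matches, and the other 30 members had none in these regions. Such matches describe letters in a sequence and do not show binding.

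The hearts had 13532012 to 27477273 counts per library. In these bulk samples, fewer cells of a type and less RNA per cell cannot be told apart. The labels were checked against marker genes: in wild type, the summed level of 7 tail bud genes was 854 to 946 CPM in tail bud and 9.65 to 18.8 CPM in heart. The host transcript Mir17hg stood at 38.1, 42.1 and 39.1 CPM in wild type hearts and at 145, 143 and 137 CPM in full knockout hearts. Counts of the host transcript do not measure the mature microRNAs, so this level does not check the alleles.

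In wild type, all 34 members that could be tested were higher in heart than in tail bud, and the same 34 were higher in heart than in the rest of the embryo. Higher in heart were 33.8% and 34% of all genes tested in these comparisons. The median log2 difference of the members was 10.59 against tail bud and 7.06 against the rest. The tissue labelled heart therefore carried its defining muscle markers at high level, in all genotypes: the members took up 5.61% to 6.65% of the counts of each heart library when Ttn was left out.

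The exception was Tnnc1, the cardiac and slow troponin C, which the table lists at 0 to 2 counts in each of the 24 heart libraries. The other troponin genes were abundant, with Tnnt2 at 2601 ± 95.3, Tnni1 at 1734 ± 34.1 and Tnni3 at 333 ± 10.8 CPM (SD, n = 3) in wild type hearts. Tnnc1 was not tested, and no more can be said of it than that it is listed near 0 in this table.

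Levels were also divided by exon length to compare genes. This length was the union of exons over all annotated transcripts of a gene, which can exceed that of a single transcript. For Myl4 it was 4637 bases, while the longest coding transcript held 894 sequences of 50 bases. The same values were 7752 and 1151 for Tnnt2 and 1950 and 840 for Myl2. The order below depends on this choice of length. Actc1, the cardiac actin, was the highest member in wild type hearts at 6853 ± 450.1 CPM per kilobase (SD, n = 3). Myl7, the atrial regulatory light chain, followed at 6035 ± 531, and the intervals of 1 SD overlapped. Acta2, an actin of smooth muscle that embryonic heart also uses, stood at 1893 ± 135. The α heavy chain Myh6 (1126 ± 39.3) and the ventricular light chain Myl2 (1072 ± 92.8) came next and overlapped. Then came the β heavy chain Myh7 at 752 ± 121, with Myl3, Mybpc3, Acta1 and Myl4 between 617 and 649 CPM per kilobase. Ttn, the giant spring between Z-disc and M-line, was at 7002 ± 1009 CPM but only 59.9 ± 8.64 CPM per kilobase because of its length. Myoz2 (2.51 ± 0.515) and the calcium store protein Casq2 (2.40 ± 0.651) were the lowest of the tested members. Myh6 and Myh7 share 22.6% and 22.2% of their 50-base sequences, and the exons of Pln and Nppa overlap genes of the opposite strand over 64.7% and 61.5% of their length, so their counts are uncertain to that extent.

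In comparisons of single genotypes with wild type hearts, few members differed in RNA level by the test used. With 3 libraries a group, few calls do not show that levels were equal. In the full knockout, 1 of 34 members passed the threshold (edgeR quasi-likelihood test, adjusted p below 0.05), against 3.91% of all genes tested. That gene was Csrp3, the muscle LIM protein of the Z-disc. No member passed it in Δ17 (0.555% of all genes), Δ18 (0.0418%), Δ19 (0.406%), Δ92 (0.0716%), Δ17,18 (1.12%) or Δ17,18,92 (1.89%). At an unadjusted p under 0.05 the counts were 4, 2, 0, 13, 1, 7 and 4 members in the full knockout, Δ17, Δ18, Δ19, Δ92, Δ17,18 and Δ17,18,92, and the shares of all genes were 17.4%, 8.3%, 4.08%, 11.4%, 6.04%, 13.1% and 13.3%. DESeq2 called 3, 1, 0, 2, 0, 2 and 1 members in the same order. Of all genes to which DESeq2 gave an adjusted p, it called 7.05%, 1.38%, 0.0597%, 2.33%, 0.187%, 2.46% and 3.54%. The median log2 change of the 34 members lay between -0.04 and 0.01 in 6 genotypes and was -0.13 in Δ19. The median over all genes was within 0.01 of 0 in each. All 7 comparisons share the same 3 wild type hearts.

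Groups that do not overlap were counted as a description. Every full knockout heart lay above every wild type heart for 2 members and below for 3, against 12.4% and 12.3% of all genes. In Δ17 it was 3 and 2 members (8.08% and 7.05%), in Δ18 0 and 1 (5.54% and 4.6%), in Δ19 1 and 4 (7.83% and 9.01%) and in Δ92 1 and 1 (5.99% and 5.44%). In Δ17,18 it was 2 and 3 (9.04% and 8.35%) and in Δ17,18,92 4 and 3 (10.1% and 8.97%). With 34 members, these shares were near those of all genes.

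**Figure D1:**
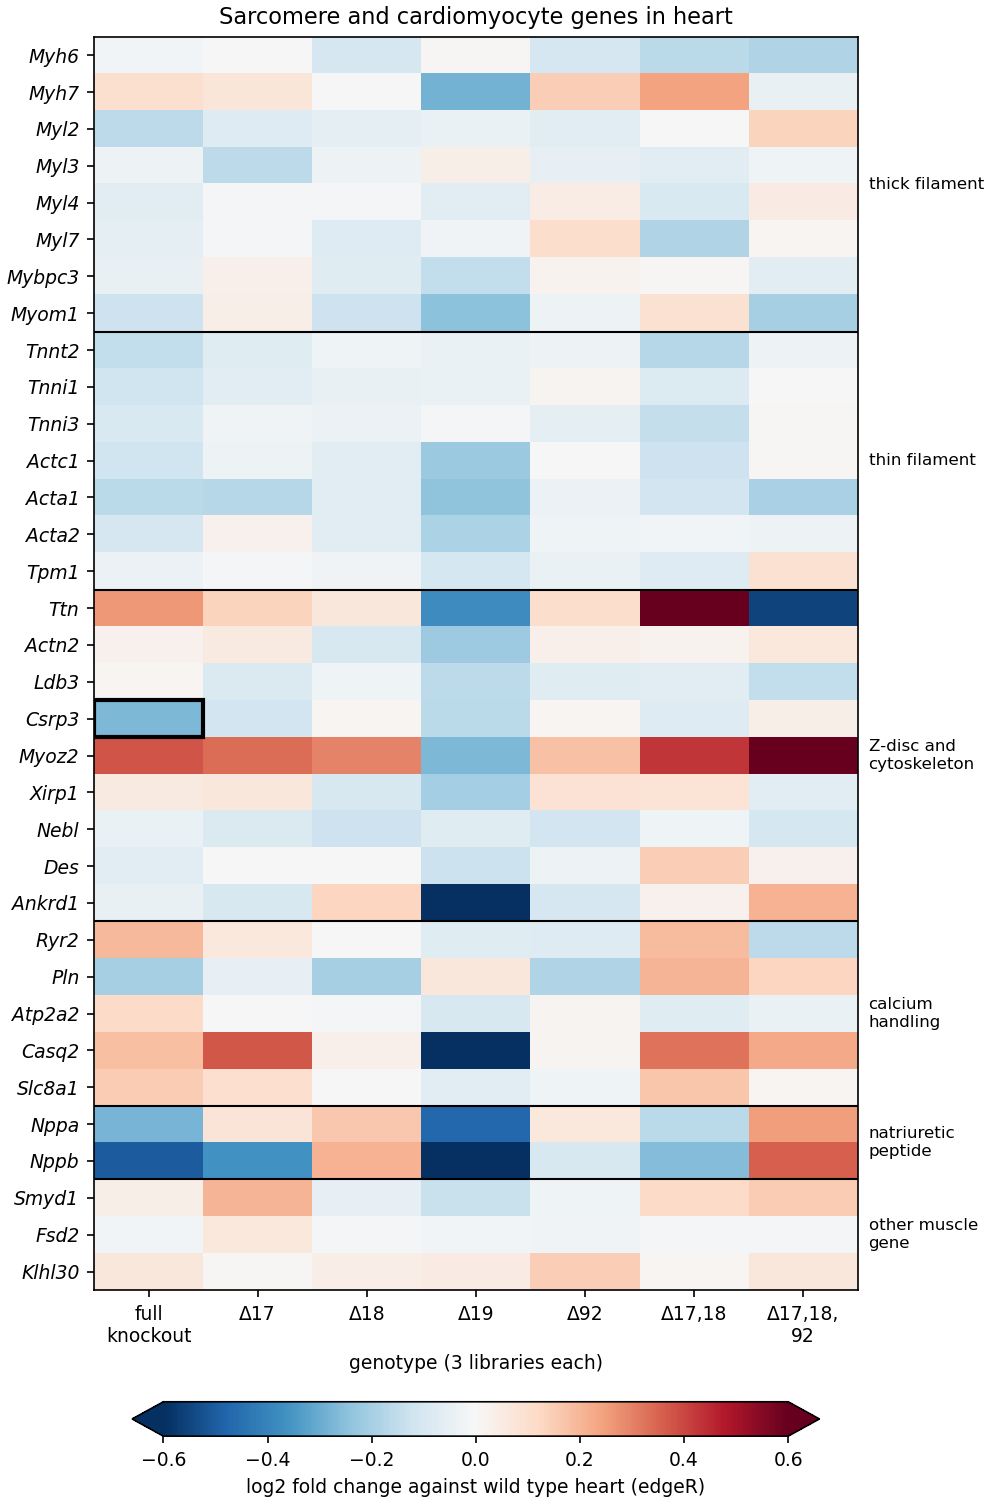
Log2 fold change of the 34 tested members (rows, grouped by role) in 7 mutant genotypes (columns, 3 libraries each) against wild type heart, fitted with edgeR. The colour scale ends at 0.6 in both directions, and the black frame marks the 1 value past the adjusted threshold, Csrp3 in the full knockout at -0.27. Values beyond the ends of the scale include Ttn in Δ17,18 (2.02, carried by 1 library) and Nppb in Δ19 (-1.43, adjusted p 0.203). Ankrd1 in Δ19 and the highest value of Δ17,18,92 (0.76) lie beyond them too.

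Csrp3 was measured at 502, 559.5 and 488 CPM in wild type hearts and at 439.7, 402 and 442 CPM in full knockout hearts. The groups did not overlap. The log2 change was -0.27 ± 0.06 (SE), with an adjusted p of 0.0109 (edgeR). The call was lost without wild type replicate 2 (adjusted p 0.0916) or without knockout replicate 2 (0.0883). Δ19 hearts, at 467, 435 and 484 CPM, also lay below every wild type heart, while Δ18, Δ92 and Δ17,18,92 hearts, between 463 and 558 CPM, did not stand apart from wild type.

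Thick-filament genes did not pass the threshold in any genotype. In the full knockout their 8 log2 changes ran from -0.16 (Myl2) to 0.10 (Myh7). Myh6 was at 7620.4, 7293 and 7817 CPM in wild type and 7081, 7890.5 and 7523 CPM in the full knockout. Myh7 was at 6950.0, 7204 and 5286 CPM in wild type and 7321, 6180.5 and 7262 CPM in the full knockout. These values overlapped for both heavy chains, whose ratio of Myh7 to Myh6 reads ran from 0.614 to 1.32 over the 24 hearts. Myl2 was at 1882, 2199.8 and 2191 CPM in wild type and at 1997, 1739.5 and 1897 CPM in the full knockout, with an adjusted p of 0.194. Myl7 was at 3908, 3475 and 3299.7 CPM in wild type and 3371, 3309 and 3590.3 CPM in the full knockout, and again the groups overlapped. Across all 24 hearts Myh6 stayed between 6303 and 8209 CPM and Myl7 between 3017 and 4065 CPM.

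Thin-filament genes were measured with little spread. In the full knockout all 7 tested had log2 changes below 0, from -0.16 (Acta1) to -0.04 (Tpm1), and none passed. Tnnt2, the cardiac troponin T that ties the complex to tropomyosin, was at 2611, 2691 and 2501 CPM in wild type and 2352, 2333 and 2370.0 CPM in the full knockout. These groups did not overlap, the log2 change was -0.15 ± 0.05 (SE), and the adjusted p was 0.136 with edgeR. Tnni1, the slow troponin I of the embryo, was at 1705, 1726 and 1771 CPM against 1626, 1549 and 1617 CPM, also without overlap (log2 change -0.12, adjusted p 0.177). DESeq2 called both of these and Csrp3 in the full knockout. Tnni3, the adult troponin I, was at 342, 337 and 321 CPM against 308, 303 and 327 CPM. Actc1 was at 11277, 11703 and 10284 CPM against 10415, 9982 and 10200.3 CPM, and Acta2 at 4362, 4292 and 3816 CPM against 3903, 3932 and 3798 CPM. Acta1, the skeletal actin, overlapped widely, at 1031, 1088 and 776 CPM against 994, 752 and 839 CPM.

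Calcium-handling genes did not pass in any genotype either. Ryr2, the ryanodine receptor, was at 927, 965 and 936 CPM in wild type and at 1092, 1019 and 1125 CPM in the full knockout. The groups did not overlap, but the log2 change of 0.19 had an adjusted p of 0.459. Pln, the inhibitor of the calcium pump, was at 99.3, 133 and 131 CPM in wild type and 101, 103 and 111 CPM in the full knockout. The pump gene Atp2a2 stood between 2240.7 and 3014 CPM over the 24 hearts, and the exchanger gene Slc8a1 between 1021 and 1478 CPM.

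Ttn was set apart by 1 library. It was at 6581, 8153 and 6272 CPM in wild type and between 3959.6 and 10049 CPM in 20 of the 21 mutant hearts, while replicate 2 of Δ17,18 was at 71405 CPM. In that library 990519 counts, or 6.33% of all counts, fell on Ttn, against 0.411% to 1.01% in the 23 other hearts. The log2 change of Δ17,18 was 2.02 with all libraries (adjusted p 0.162 with edgeR, 0.0313 with DESeq2) and -0.04 without this library. The same library had 862 CPM of the gene Gm10800 (2.61 to 202 in the others), 199 CPM of Gm10801 (0.832 to 44.1) and 125 CPM summed over 57 histone genes (34.6 to 57.0). These 3 values are CPM of the library total. It also held the highest heart level of 10 of the 34 members, among them Myh7, Ryr2 and Pln. The part of these signs of library composition in the Ttn value was not tested.

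Δ19 hearts had lower values of many members, none of them past the threshold with edgeR, while DESeq2 called Actc1 and Nppb. The log2 change was below 0 for 30 of 34 members, and 13 members, all lower, had an unadjusted p under 0.05 (11.4% of all genes in both directions). All 9 Z-disc and cytoskeleton genes were below 0, from -0.75 (Ankrd1) to -0.07 (Nebl). Myh6, Myl3, Pln and Klhl30 were above 0, at 0.01, 0.03, 0.07 and 0.05. Actc1 was at 9241, 8402 and 10827 CPM in Δ19, with a log2 change of -0.22 ± 0.07 (SE) and an adjusted p of 0.159 with edgeR. Replicate 2 of Δ19 held the lowest heart level of 15 of the 34 members, the most of any heart. Without it the median log2 change of the members was -0.08, and 27 of 34 were below 0. The summed level of 8 primitive erythroid genes, mainly embryonic globins, was 11457 CPM at its highest in Δ19 hearts and 1047 CPM at its lowest, against 982 to 2827 CPM in wild type. In Δ18 hearts the same genes were at 2927 to 9667 CPM, and the median log2 change of the members was -0.03. The part of blood RNA in the Δ19 values was not tested.

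All genotypes were then combined in an additive fit that codes every heart by the seed families of the cluster that its genotype lacks. The term for loss of miR-19 sets the full knockout and Δ19 against the other genotypes, adjusted for the terms of the other families. It called 5 members lower and none higher, against 2.5% of all genes lower and 4.37% in both directions. These were Csrp3, the natriuretic peptide genes Nppa and Nppb, Smyd1 and Actc1. DESeq2 called these 5 and also Acta2 and Casq2 (8.34% of all genes). The median log2 value of the 34 members was -0.09 and that of all genes 0.00. None of the 5 has a miR-19 match in the searched region. Ldb3 and Slc8a1, which have one, had log2 values of -0.00 and 0.01 for this term and did not pass. Genes of other lists passed for the same term: 4 of 23 further sarcomere genes were lower (Hspb7 by -0.19, Tnnt1 by -0.21, Cryab by -0.18 and Pdlim3 by -0.25) and Trim63 was higher (0.16). Tagln, 1 of 8 smooth muscle genes, was lower (-0.39), 4 of 17 cardiac transcription factors were higher (Tbx3 by 0.36, Tbx2 by 0.27, Tbx5 by 0.17 and Gata6 by 0.13), and 1 of 4 tested skeletal muscle genes, Tnni2, was higher (0.25). The summed smooth muscle level was 1910.1 to 2386 CPM in Δ19, 2424 to 2562 CPM in the full knockout and 2442 to 2928 CPM in wild type hearts. None of 12 endothelial, 6 epicardial or 8 erythroid genes passed. The part of other cell types in the 5 calls was not tested.

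Csrp3 fell by 0.20 on the log2 scale with loss of miR-19 (SE 0.04, adjusted p 0.00198, edgeR), and the call held in all 24 fits that leave out 1 heart. Actc1 fell by 0.15 (SE 0.04, adjusted p 0.0366), and its call was lost in 7 of 24 such fits, with an adjusted p of up to 0.153 without Δ19 replicate 2. Smyd1 fell by 0.12 (SE 0.03, adjusted p 0.0279), and its call was lost in 3 of the 24, namely without full knockout replicate 1 or Δ19 replicate 1 or 2, with an adjusted p of up to 0.135.

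Nppa, the atrial natriuretic peptide gene, was at 202, 227 and 149.8 CPM in wild type, 162, 159 and 157 CPM in the full knockout and 126, 134 and 158 CPM in Δ19. The remaining 15 hearts ran from 162 to 276 CPM, so 5 of the 6 hearts without miR-19 lay below all of these 15, and 1 wild type heart lay as low. The term for loss of miR-19 was -0.47 ± 0.11 (SE, adjusted p 0.0144), lost only without Δ19 replicate 1 (0.067). Nppb, the B-type peptide gene, which is known to respond to stretch, was at 98.5, 203 and 80.7 CPM in wild type and 136, 84.8 and 51.9 CPM in the full knockout. In Δ19 it was at 30.6, 39.1 and 72.6 CPM, below every wild type heart. Its term was -0.99 ± 0.27 (SE, adjusted p 0.0405), and the call was lost in 14 of 24 fits that leave out 1 heart, with an adjusted p of up to 0.146.

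Nppb varied more within a genotype than any other tested member except Ttn, with a pooled SD of 0.539 on the log2 scale against 0.0475 for Tnni1. Ankrd1, a stress-responsive Z-disc gene, moved with it. In wild type Ankrd1 was at 702, 1258 and 638 CPM and in Δ19 at 428, 459 and 663 CPM. Nppb and Ankrd1 had their highest value in the same library in 8 of 8 genotypes and their lowest in the same library in 7 of 8. Nppb and Nppa shared the highest library in 6 of 8 genotypes and the lowest in 4 of 8. Nppb and Ankrd1 thus differed together between libraries of 1 genotype.

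**Figure D2:**
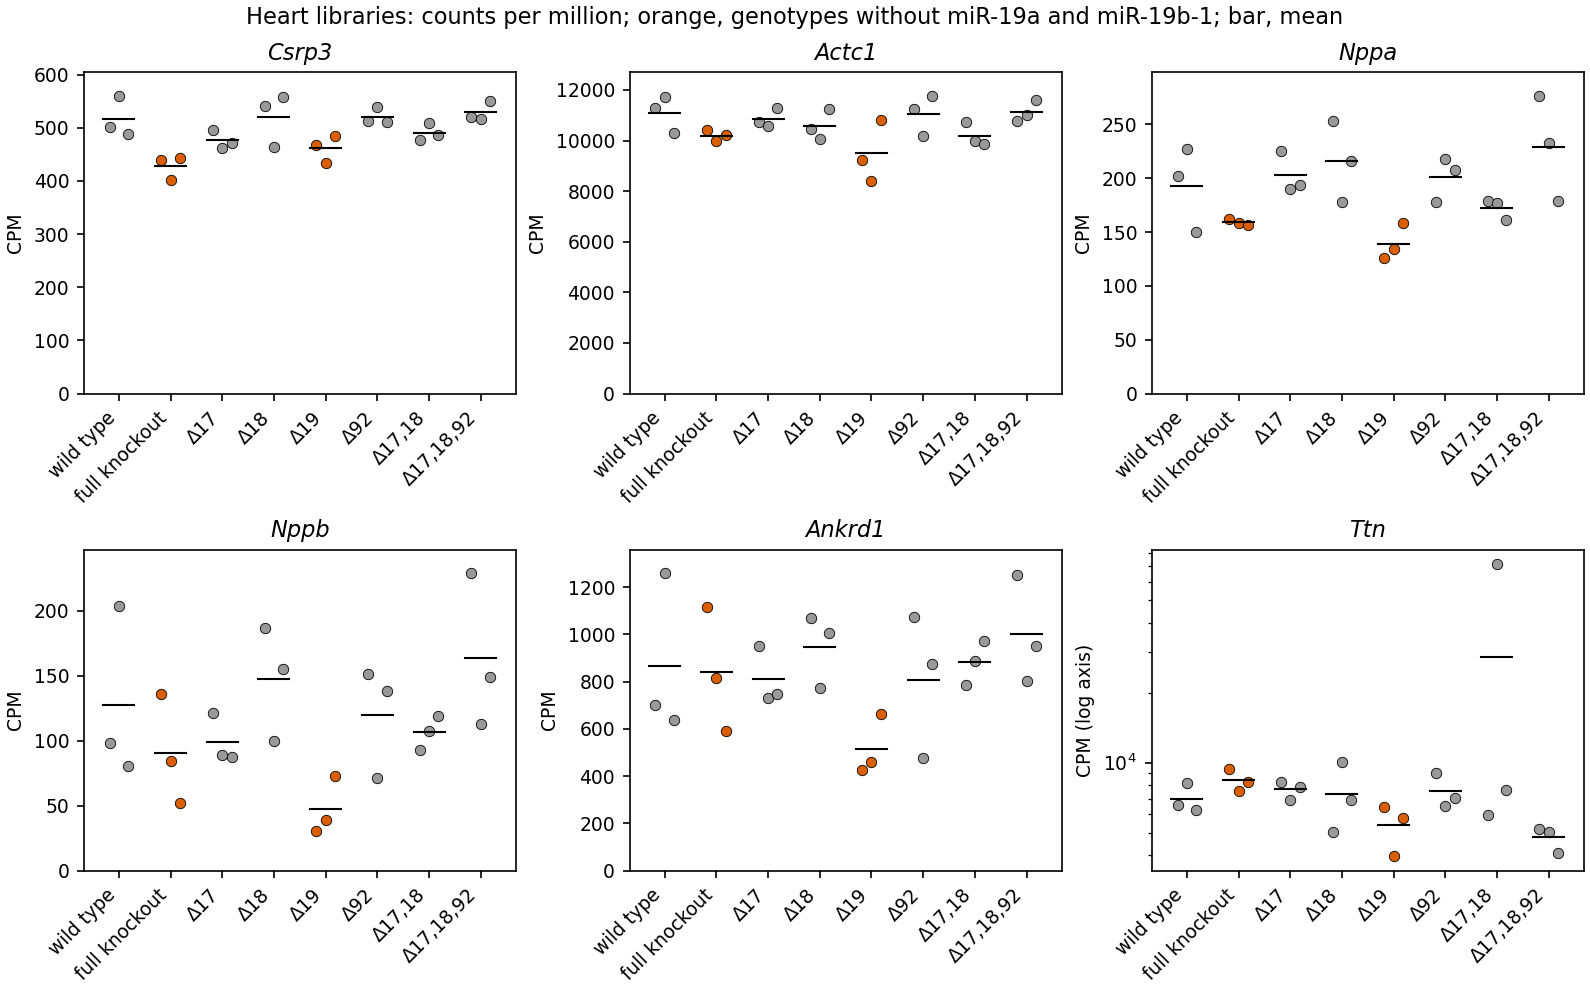
CPM of 6 members in the 24 hearts, 1 point per library in replicate order and a bar at the genotype mean, with the 2 genotypes without miR-19 in orange. The axes start at 0 except for Ttn, which is on a log axis. Csrp3 in the full knockout (402 to 442) lies below wild type (488 to 559.5), Nppb and Ankrd1 peak in the same library of each genotype, and 1 Ttn point of Δ17,18 is at 71405.

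The term for loss of miR-17 and miR-20a called 1 member, Smyd1, against 3.61% of all genes. Smyd1 encodes a muscle-specific histone methyltransferase and myosin chaperone that embryonic hearts need. It was at 789, 781 and 702 CPM in wild type hearts and at 872, 876 and 869 CPM in Δ17 hearts. The Δ17,18 hearts had 862, 791 and 804 CPM and the Δ17,18,92 hearts 841, 845 and 839.8 CPM, so these 9 hearts all lay above every wild type heart. Full knockout hearts, which also lack miR-19, had 731, 796 and 801 CPM and overlapped wild type. Of the hearts that keep miR-17, Δ18 had 707, 736 and 750.0, Δ19 665, 664 and 741, and Δ92 718, 765 and 752 CPM, none above the highest wild type heart. The term was 0.20 ± 0.03 (SE) on the log2 scale with an adjusted p of 5.95e-05, and it held in all 24 fits that leave out 1 heart. In single comparisons with wild type no genotype passed for Smyd1 with edgeR (Δ17 log2 change 0.20, adjusted p 0.0839), while DESeq2 called it in Δ17.

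No member passed for the terms of miR-18 (0.0896% of all genes) or miR-92 (1.58%). With edgeR 1 and 3 members had an unadjusted p under 0.05 (8.14% and 12.9% of all genes), and DESeq2 called 0 and 1 (0.375% and 3.21%). In the test of any difference among the 8 genotypes 3 members passed, Smyd1 (adjusted p 0.000599), Csrp3 (0.00727) and Myoz2 (0.047), against 11.3% of all genes. DESeq2 called 11 members, against 20.6% of all genes. Myoz2, calsarcin-1 of the Z-disc, was low, at 8.12, 10.5 and 7.10 CPM in wild type, 17.3, 13.0 and 13.4 CPM in Δ17,18,92 and 7.81, 5.66 and 7.86 CPM in Δ19. Its call was lost in 18 of 24 fits that leave out 1 heart, with an adjusted p of up to 0.119. A test of departure from the additive fit called none of the 34 members (0.0597% of all genes), and 3 had an unadjusted p under 0.05 (11.3%).

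Other muscle and heart lists were described beside the members. Of 23 further sarcomere genes, 2 rose and 1 fell in full knockout hearts. Trim63, a muscle ubiquitin ligase, rose by 0.39 ± 0.06 on the log2 scale (adjusted p 0.000127) and Cmya5 by 0.58 ± 0.13 (0.0137), while Myl1 fell by 0.20 (SE 0.06, adjusted p 0.0434). Trim63 also rose in Δ17,18 by 0.28 and in Δ17,18,92 by 0.30. Of 17 cardiac transcription factors 4 rose and none fell in the full knockout, led by p by Tbx20, Tbx5 and Tbx3 (0.30, 0.22 and 0.39). Of 13 tested calcium and energy genes, only Asph rose (0.17). Among non-muscle lists, 1 of 12 endothelial genes (Pecam1, 0.23) and 1 of 8 smooth muscle genes (Mylk, 0.61) rose, and none of 6 epicardial, 8 erythroid, 4 tested neural or 7 second heart field genes passed in either direction.

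Outside the heart the members were present at a small share of their heart level. The median member was at 0.0732% of its heart level in wild type tail buds and at 0.901% in the embryo remainder. Tpm1 and Atp2a2, which non-muscle cells also use, were far above this, at 24.4% and 20.5% in tail bud and 11.5% and 21.1% in the rest. Des (5.15% and 2.69%) and Acta2 (1.46% and 2.45%) were also higher than the median in both tissues. So was Casq2 (1.46% and 8.70%), a gene with a low level in wild type heart (6.56 ± 1.78 CPM, SD, n = 3). Natriuretic peptide genes were among the lowest, with Nppa at 0.00700% and 0.187%.

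The rest of the embryo did not hold the members in the proportions of the heart. Myl2, the ventricular light chain, was at 0.369, 0.137 and 0.0920 CPM in the wild type rest, 0.00953% of its heart level, while the atrial light chain Myl7 was at 28.1, 35.1 and 29.5 CPM, or 0.867%. The ratio of Myl2 to Myl7 reads ran from 0.477 to 0.708 in the 24 hearts and from 0.00313 to 0.113 in the 23 libraries of the rest, without overlap. The ratio of Myh7 to Myh6 reads had a median of 0.939 in heart and 0.285 in the rest, and there the ranges did not overlap either (0.127 to 0.503 in the rest). In tail bud these ratios ran from 0.196 to 1.50 and from 0.319 to 4.20, on few reads.

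**Figure D3:**
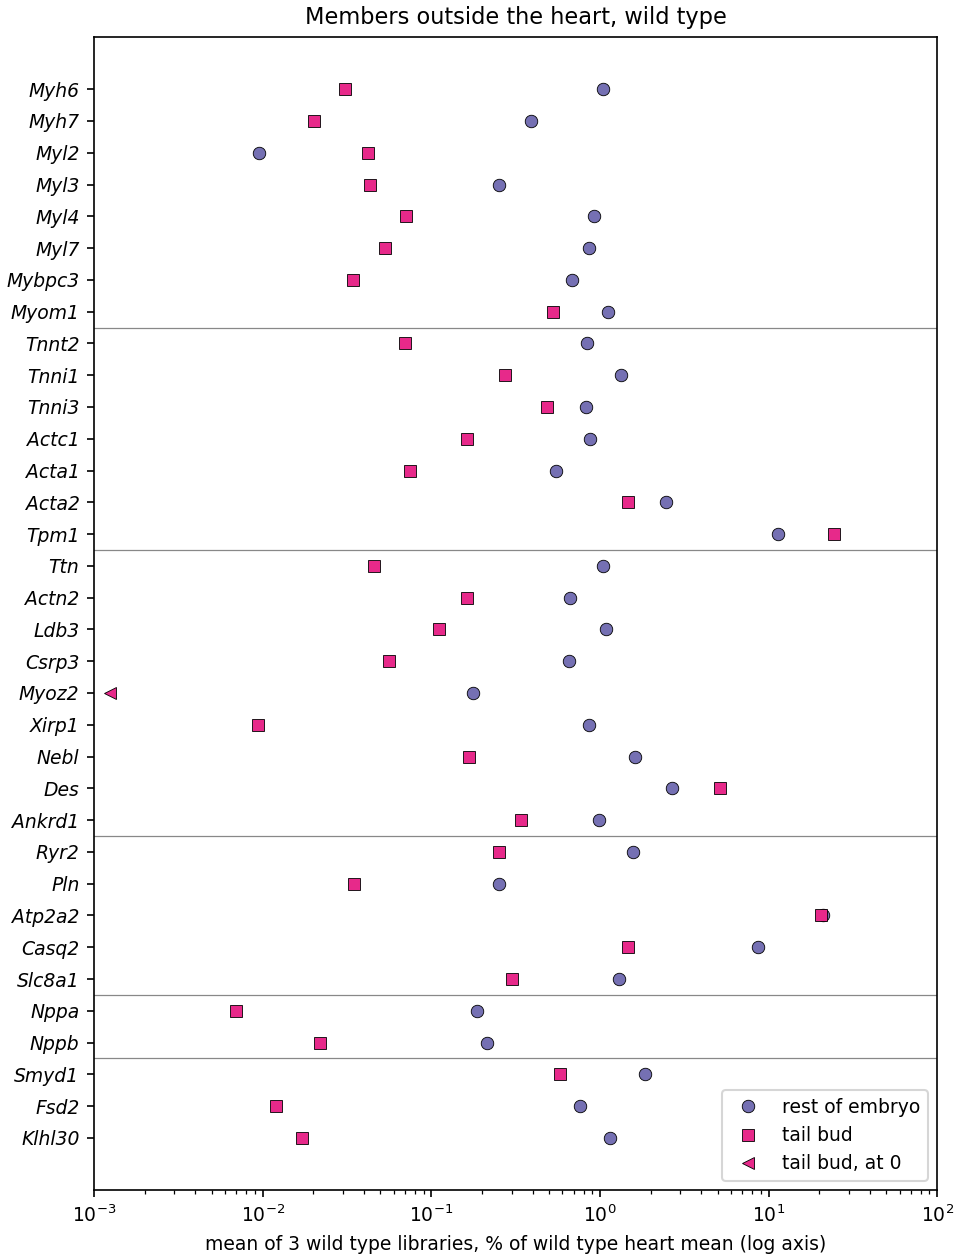
Mean wild type level of each member in the rest of the embryo (circles) and in tail bud (squares) as a percent of its wild type heart mean, on a log axis (n = 3 libraries each). The median member lies at 0.901% in the rest and at 0.0732% in tail bud; Tpm1 and Atp2a2 lie above 10% and Myl2 of the rest at 0.00953%. Myoz2 was at 0 in wild type tail buds and is drawn at the left edge.

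The median percent of heart level over 34 members, broadly used ones included, summarised the level of these genes in each library. It does not tell heart RNA from expression of the same genes in other cells. In the rest of the embryo it was 0.857%, 1.09% and 0.846% in wild type, 1.09%, 0.650% and 0.793% in the full knockout and 1.44% and 2.01% in the 2 Δ17,18,92 libraries. Δ92 libraries, at 1.18%, 1.28% and 1.30%, lay above every wild type library, and no library of Δ17, Δ18, Δ19 or Δ17,18 reached the lower Δ17,18,92 library. In tail bud it was 0.0783%, 0.0622% and 0.0999% in wild type and 0.0557% to 0.148% over all 24 libraries. Myh6 reached 5.36 CPM in replicate 3 of wild type and 7.13 CPM in replicate 1 of Δ17,18 among tail buds, against 0.383 to 2.75 CPM in the other 22.

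**Figure D4:**
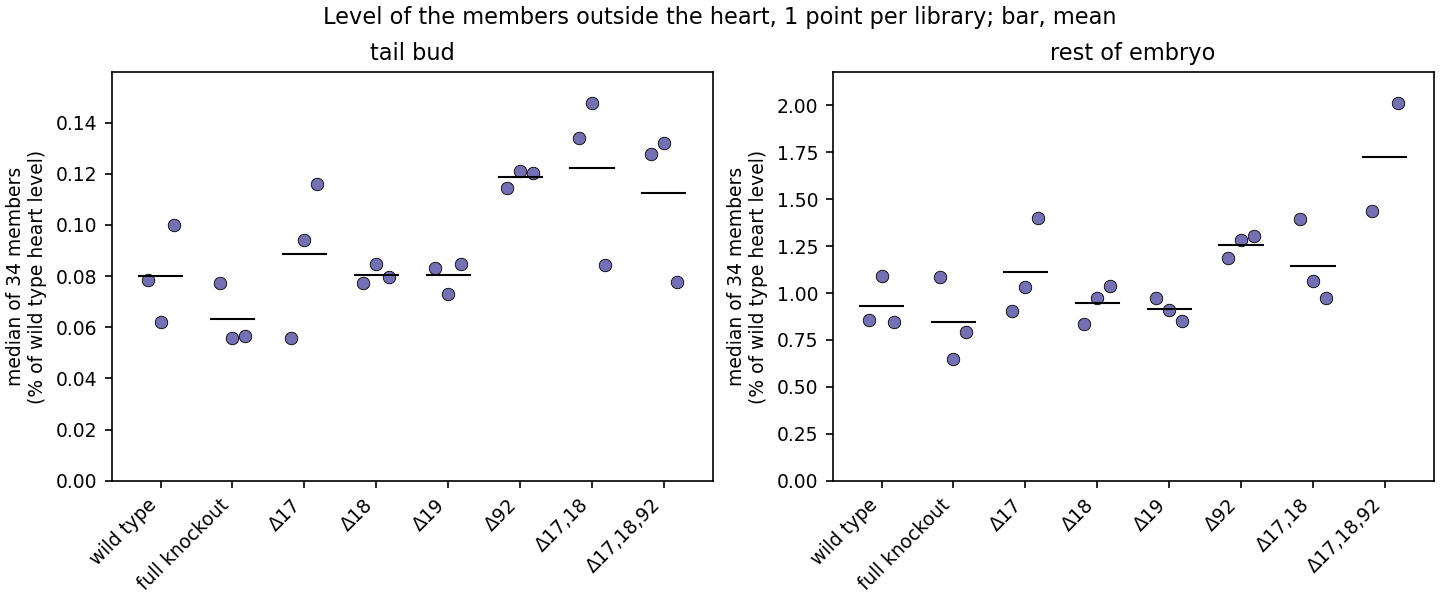
Median level of 34 members as a percent of their wild type heart mean, 1 point per library of tail bud (left) and rest of the embryo (right) and a bar at the genotype mean. Wild type libraries of the rest lie between 0.846% and 1.09% and the 2 of Δ17,18,92 at 1.44% and 2.01%; tail buds lie between 0.0557% and 0.148%.

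Among genotypes of the embryo remainder, Δ17,18,92 had the most member calls. There 15 of 32 tested members rose and none fell, against 4.27% of all genes higher. The median log2 change of the 32 was 0.79, against -0.01 over all genes. Both Δ17,18,92 libraries lay above all 3 wild type libraries for 29 of the 32, which held for 17.6% of all genes (5.62% were called in both directions). DESeq2 called 22 of the 32 (8.38% of all genes), and without a filter on low counts edgeR called 27 of 35. The share over all genes without that filter is not given here. Acta1 was at 8.44 and 13.8 CPM against 4.74, 6.11 and 4.97 CPM in wild type, a log2 change of 1.07 ± 0.19 (SE, adjusted p 0.000888, edgeR). Tnnt2 was at 34.9 and 49.0 CPM against 19.4, 25.7 and 20.1 CPM (0.95 ± 0.21, adjusted p 0.014). Myh6, at 135 and 177 CPM against 62.9, 99.5 and 74.4 CPM, was also higher in both libraries and did not pass.

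The count of 15 depended on single libraries. Without replicate 2 of Δ17,18,92, which had the higher percent of heart level, 1 member was called and the median log2 change was 0.52. Without replicate 1 it was 21 members and 1.02, and without wild type replicate 1 or 3 it was 8 or 9. Genes of other lists rose in the same comparison: 6 of 12 endothelial, 2 of 8 smooth muscle, 2 of 6 epicardial and 1 of 10 tested skeletal muscle genes passed, all higher. The foregut gene Shh was also higher. So were the further sarcomere genes Nexn, Tpm2, Cmya5, Synpo2l, Hspb7, Trim55 and Myl1 and the calcium and energy genes Trdn, Asph and Popdc2. The cardiac transcription factors Tbx5, Tbx20, Hey2 and Tbx3 rose as well. No erythroid, neural, neural crest, second heart field or tail bud gene of the lists passed. The summed endothelial level was 711 to 744 CPM, against 628 to 648 CPM in wild type, and the summed skeletal muscle level 37.2 to 39.0 against 21.9 to 27.0 CPM. The part of dissection and of cell type content in these values was not tested.

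In the other genotypes few members changed in the rest of the embryo. The full knockout, Δ17 and Δ17,18 each called 1 member, Tpm1, against 6.66%, 1.56% and 4.44% of all genes. Δ18 and Δ92 called none (0.36% and 0.588%), with 0 and 11 members at an unadjusted p under 0.05 (10.7% and 8.28% of all genes), and DESeq2 also called none (2.9% and 1.19%). In Δ92 the 3 libraries lay above all wild type libraries for 16 of 32 members, which held for 7.11% of all genes. Δ19 called 1 (1.88%), Myl2, at 1.36, 1.06 and 3.21 CPM against 0.369, 0.137 and 0.0920 CPM. Its log2 change was 3.24 ± 0.77 (SE, adjusted p 0.0401), and the call was lost in 5 of 6 fits that leave out 1 library, with an adjusted p of up to 0.154. DESeq2 called no member in Δ19, against 3.92% of all genes to which it gave an adjusted p. In the test of any difference among genotypes 17 of 32 passed (18.4% of all genes), and 8 passed without the Δ17,18,92 group, an alternative chosen after seeing the data.

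Tpm1 encodes α-tropomyosin, which lies along actin in muscle and non-muscle cells. In the rest of the embryo it was at 382, 378 and 395 CPM in wild type and at 452, 419 and 477 CPM in the full knockout. It was at 427, 453 and 456 CPM in Δ17, 468, 449 and 443 CPM in Δ17,18 and 484 and 544 CPM in Δ17,18,92. Every library that lacks miR-17 and miR-20a was above every wild type library. The libraries that keep them ran from 351 to 419 CPM, with Δ18 at 412, 382 and 408, Δ19 at 351, 409 and 396 and Δ92 at 399.6, 419 and 418 CPM. The log2 changes were 0.22, 0.21, 0.24 and 0.42 (SE 0.05 to 0.06) in the full knockout, Δ17, Δ17,18 and Δ17,18,92, with adjusted p of 0.00609, 0.0281, 0.00597 and 1.53e-05. The Δ17 call was lost in 5 of 6 fits that leave out 1 library (up to 0.155), and the full knockout call without knockout replicate 3 (0.0601).

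The term for loss of miR-17 and miR-20a in the rest called 3 members, all higher, against 4.79% of all genes higher and 7.49% in both directions. They were Tpm1 (0.19 ± 0.03, adjusted p 0.000195), Acta1 (0.37 ± 0.11, 0.0329) and Smyd1 (0.37 ± 0.11, 0.0444). The Tpm1 call held in all 23 fits that leave out 1 library, the Acta1 call was lost in 6 of them and the Smyd1 call in 15. With the replicate number as a block 2 members were called, Smyd1 being lost (adjusted p 0.0621), and without a filter on low counts 1, Tpm1. For Smyd1 the full knockout libraries, at 16.8, 10.3 and 14.1 CPM, overlapped the wild type ones at 15.2, 14.0 and 13.1 CPM. The median percent of heart level over 25 members was set beside the rise of Tpm1. Acta1, Acta2, Actc1, Tnni1, Tpm1, Des, Ttn, Atp2a2 and Nebl were left out of that percent for roles outside heart muscle, not for their measured levels. In Δ17,18,92 Tpm1 stood 129 CPM above wild type, and the change in that percent times the wild type heart level of Tpm1 came to 25.2 CPM. In the full knockout the rise was 64.3 CPM and the product -2.58 CPM. This percent does not tell heart RNA from expression in other cells, and the part of heart RNA in the Tpm1 rise was not tested.

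In tail bud 25 members could be tested, and the full knockout called none against 10.4% of all genes (4 at an unadjusted p under 0.05, against 26.6% of all genes, and none with DESeq2, against 18.9%). Δ17 (1.77%), Δ18 (0.129%), Δ19 (1.03%), Δ92 (0.359%) and Δ17,18 (8.31%) called none either, with 1, 0, 3, 2 and 6 members at an unadjusted p under 0.05 (15.4%, 12.9%, 17.9%, 11.7% and 25.8% of all genes). In the same order DESeq2 called 0, 0, 1, 0 and 2 members, against 4.14%, 0.397%, 5.51%, 1.45% and 16.7% of all genes. Δ17,18,92 called Tpm1 (5.57% of all genes), with a log2 change of 0.26 ± 0.06 and an adjusted p of 0.0115, lost without Δ17,18,92 replicate 2 (0.0526) and in a fit of only the 2 groups (0.112). In the test of any difference among genotypes, Tpm1, Des and Smyd1 passed (12.2% of all genes). The term for loss of miR-17 and miR-20a called 3, all higher, against 4.1% of all genes higher and 5.44% in both directions: Smyd1 (0.41 ± 0.09, adjusted p 0.00285), Des (0.25 ± 0.05, 0.00329) and Tpm1 (0.16 ± 0.04, 0.00405). All 3 calls held in all 24 fits that leave out 1 tail bud. Tpm1 was at 828, 812 and 824 CPM in wild type and at 927, 901 and 914 CPM in the full knockout tail bud, and at 683, 729.9 and 809 CPM in Δ19. Smyd1 was at 4.63, 3.81 and 4.76 CPM in wild type and at 5.84, 4.90 and 6.08 CPM in the full knockout. Both genes lay above every wild type tail bud in the full knockout and in Δ17,18,92, as did Tpm1 in Δ17 and Smyd1 in Δ17,18. For Tpm1 in Δ17,18 and Smyd1 in Δ17, 1 of 3 libraries fell within the wild type range.

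**Figure D5:**
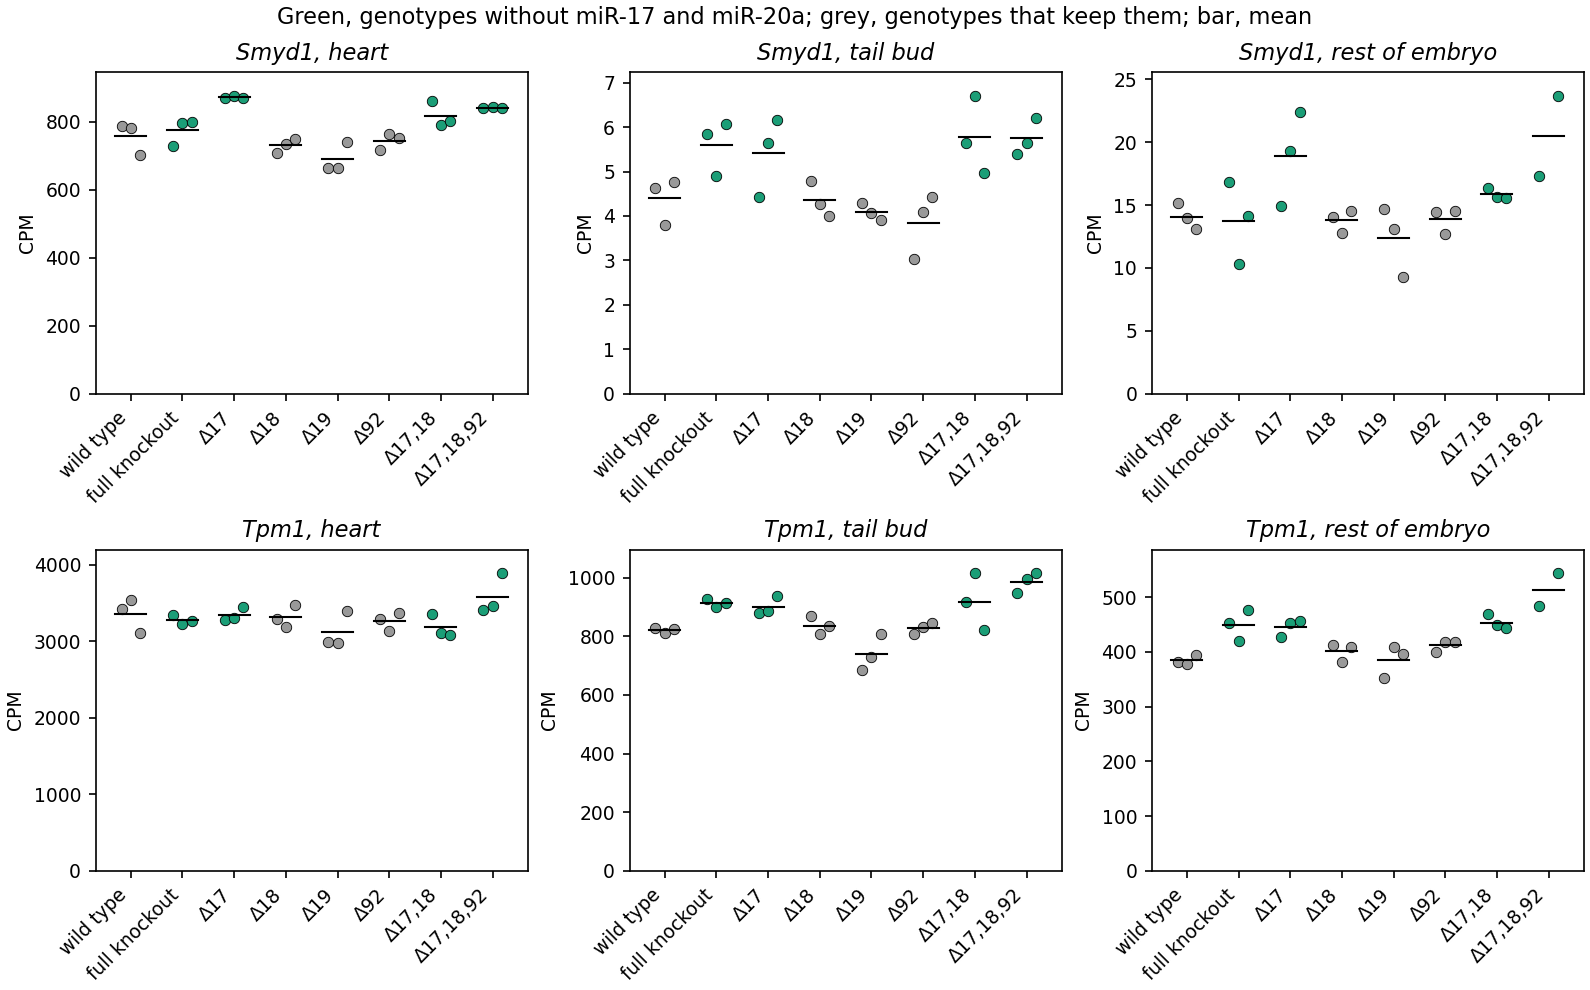
CPM of Smyd1 (top) and Tpm1 (bottom), the 2 members with a miR-17 8mer, in heart, tail bud and rest of the embryo, 1 point per library and a bar at the genotype mean. Genotypes without miR-17 and miR-20a are green. Green points lie above wild type for Tpm1 in the rest (419 to 544 against 378 to 395), while in heart Tpm1 green points (3083 to 3889.9) overlap wild type (3111 to 3547).

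Des, the intermediate filament of muscle, was at 42.6, 43.2 and 42.0 CPM in wild type tail buds, 49.2, 58.0 and 48.5 CPM in Δ17,18 and 31.7, 34.4 and 34.1 CPM in Δ19. It has no miR-17 match in the searched region. For the miR-19 term it was also lower, by 0.28 (SE 0.05, adjusted p 0.00183) in tail bud and by 0.38 (SE 0.07, 0.000599) in the rest. For the same term Nebl was lower by 0.36 in tail bud (SE 0.11, adjusted p 0.045), a call lost in 17 of 24 fits that leave out 1 library. The miR-19 term called 2 of 25 members lower in tail bud (2.43% of all genes lower, 5.33% in both directions) and 6 of 32 lower in the rest (3.21% and 6.59%), where Myom1, Ttn, Actn2, Csrp3 and Xirp1 passed beside Des. Ttn and Xirp1 were lost with the replicate number as a block (adjusted p 0.0624 and 0.0531) and without the Δ17,18,92 group (0.0856 and 0.0976). Of the 6, Ttn was lost in 17, Xirp1 in 8, Actn2 in 5 and Myom1 in 2 of 23 fits that leave out 1 library. For the same term in the rest, 8 of 20 tested further sarcomere genes (among them Myl1, -0.80), 3 of 8 smooth muscle genes (Lmod1, Cnn1 and Tagln, -0.46, -0.59 and -0.38), 1 of 12 endothelial genes (Emcn, -0.17) and 1 of 10 tested skeletal muscle genes (Actn3, -0.37) were lower. Of 11 tested calcium and energy genes, 3 were lower and 1 higher. The median log2 value of the 32 members for this term in the rest was -0.40. Against wild type the median was -0.14 in the full knockout, 0.17 in Δ17, 0.04 in Δ18 and -0.03 in Δ19. It was 0.41 in Δ92, 0.22 in Δ17,18 and 0.79 in Δ17,18,92. The median percent of heart level was 0.843% ± 0.222 in the full knockout and 0.913% ± 0.0612 in Δ19, which lack miR-19 (SD, n = 3), and 1.73% ± 0.409 in Δ17,18,92 (SD, n = 2), which keeps it. It was 0.931% ± 0.138 in wild type, 0.949% ± 0.103 in Δ18, 1.11% ± 0.257 in Δ17, 1.14% ± 0.221 in Δ17,18 and 1.26% ± 0.0631 in Δ92 (SD, n = 3). The part of heart or other muscle tissue in these calls was not tested. The miR-92 term called 1 member in each, Des lower in tail bud (-0.18, adjusted p 0.047, lost in 16 of 24 fits, against 3.66% of all genes) and Ankrd1 higher in the rest (0.64 ± 0.15, adjusted p 0.0134, against 5.18%). The miR-18 term called none in either (0.323% and 0.748%), none with DESeq2 (1.17% and 1.43%), and none at an unadjusted p under 0.05 (11.9% and 14.3% of all genes).

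In heart, Tpm1 did not pass for loss of miR-17 and miR-20a (0.02 ± 0.04, adjusted p 0.861). Its levels were 3429, 3547 and 3111 CPM in wild type and 3344, 3229 and 3271 CPM in the full knockout. The difference between the full knockout's effect in heart and in the rest, tested in 1 fit over all 71 libraries, was -0.27 ± 0.09 on the log2 scale with an adjusted p of 0.349, and between heart and tail bud -0.21 ± 0.09 (0.467). For Smyd1 these differences were 0.05 ± 0.17 (0.978) and -0.35 ± 0.20 (0.641). No member passed either test (0.159% and 0.223% of all genes). For Δ17,18,92, 8 members passed between heart and the rest (0.164% of all genes) and none between heart and tail bud (0.461%). With the replicate number within each genotype as a block across tissues, an alternative chosen after seeing the data, 3 passed between heart and the rest (0.143% of all genes). They were Tnnt2, Acta1 and Tpm1 (adjusted p 0.00544, 0.032 and 0.032), of which Tnnt2 and Acta1 were among the 8. Same-numbered libraries of heart and rest were only weakly paired in Δ17,18,92 (lowest correlation 0.0284). The other 3 tests called no member with the block either. Of all genes they called 0.387% (full knockout, heart and rest), 0.498% (full knockout, heart and tail bud) and 2.88% (Δ17,18,92, heart and tail bud). The Tpm1 difference of the full knockout between heart and the rest had an adjusted p of 0.0776 with the block. The test of departure from the additive fit called no member in tail bud (0.0176%) or the rest (0.103%), with 0 and 15 members at an unadjusted p under 0.05 (5.15% and 9.04% of all genes).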

How the data were processed

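RNA was measured in 71 libraries of 8 genotypes and 3 tissues. The deposited values are read counts per gene, not normalised. Per the submitters' processing notes the authors used featureCounts (Subread 1.4.2), the aligner STAR 2.3.0 and SAMtools 0.1.14, and named the builds mm9 and NCBIM37. Reads were single, 50 bases long. Annotation release, strand setting and treatment of multi-mapping reads are not given in the sources used here. Symbols came from GENCODE M21 on GRCm38 by gene ID (32897 of 37620). The 3′ untranslated regions and exon lengths came from the same annotation.

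Each tissue had its own edgeR fit (version 4.0.16, R 4.3.3). Low genes were removed by filterByExpr with genotype as the group, libraries were scaled by TMM, and robust quasi-likelihood tests were adjusted by Benjamini-Hochberg over all genes tested, with a threshold of 0.05. It tested 16750 genes in heart, 17009 in tail bud and 17512 in the rest. CPM are counts over TMM-scaled library sizes within a tissue. Log2 changes carry SE. The fits were tested on simulated counts. DESeq2 1.42.0, other normalisations and filters, a replicate block, fits of only 2 groups and leaving out each library were alternatives.

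The members, lists, additive terms and tests were chosen with earlier results of these data known. Values per library were given for members past the threshold in a heart test and for 16 core members chosen by role. Same-numbered libraries were paired across tissues in wild type, by the correlation of their deviations from the group means (lowest 0.118 for heart with tail bud, 0.264 for heart with rest). In the full knockout the lowest values were 0.0761 and 0.0582. In Δ17,18,92 they were 0.380 and 0.0284, and only 1 of 2 libraries of the rest matched the same-numbered heart best. The pairing that the block across tissues assumes was thus weak there. Across genotypes within a tissue the numbers did not pair in general, so the main fits have no block. The fit over all tissues was also run without one, and its blocked values stand beside it.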

Additional observations from a re-analysis of the deposited data

Results flagged for a closer look

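The effect of Δ17,18,92 differed between heart and the rest of the embryo for 8 members, by a test of the difference itself in a fit of all 71 libraries (edgeR, adjusted p below 0.05, 0.164% of all genes). The differences, heart minus rest on the log2 scale, were -3.04 for Myl2, -1.27 for Acta1, -1.16 for Fsd2, -1.08 for Ryr2, -1.01 for Tnni3, -0.97 for Tnnt2, -0.92 for Ldb3 and -0.90 for Actn2. The Myl2 value rests on few reads, with a wild type rest level of 0.199 ± 0.149 CPM (SD, n = 3). It was -1.69 without replicate 2 of Δ17,18,92 rest. In heart the 8 log2 changes of Δ17,18,92 ran from -0.20 (Acta1) to 0.13 (Myl2), none past the threshold; in the rest 7 of the 8 rose and Fsd2 had an adjusted p of 0.0624. The count was 0 without replicate 2 of Δ17,18,92 rest, without wild type rest replicate 1 or 3, or without wild type heart replicate 2. It was 2 to 8 without each of the 7 other libraries of these 4 groups. The direction was the same in all 11 fits for all 8 genes, and Tnnt2 kept its call in 7. With the replicate number as a block across tissues, chosen after seeing the data, the count was 3 (0.143% of all genes). That block assumes pairing by number, which was weak between heart and rest in Δ17,18,92 (lowest correlation 0.0284). Tnnt2 and Acta1 kept their call (adjusted p 0.00544 and 0.032), Tpm1 was added, and the other 6 had an adjusted p of 0.0629 to 0.152. Whether heart tissue left in the rest of the embryo accounts for these values was not tested.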

How the results depend on the processing

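Limits: 3 libraries a group, 2 in 1 group, and gene counts that do not separate transcripts or overlapping genes. The members called in heart changed with tool and filter as follows, with the main count first. With DESeq2 the full knockout went from 1 to 3, Δ17 from 0 to 1, Δ19 from 0 to 2, Δ17,18 from 0 to 2, Δ17,18,92 from 0 to 1, any genotype from 3 to 11, the miR-19 term from 5 to 7 and the miR-92 term from 0 to 1. With no filter on low counts these became 5 (full knockout), 1 (Δ17), 1 (Δ18), 11 (Δ19), 5 (Δ17,18), 5 (Δ17,18,92), 21 (any genotype) and 3 (miR-19 term, main 5). Calls over all genes without the filter were 1003, 298, 222, 630, 749, 776, 3759 and 515 in this order. In the main fits they were 655, 93, 7, 68, 187, 316, 1890 and 732. A mean log2 CPM of at least 3 gave 1 in Δ17 (120 calls over all genes). Fits of only the 2 groups gave 3 in the full knockout (1010 over all genes) and 1 in Δ17,18,92 (267). In the rest of the embryo DESeq2 gave 22 and no filter 27 in Δ17,18,92 (main 15), and no filter gave 1 for the miR-17 term (main 3). No filter gave 6 in the full knockout (main 1) and 27 for any genotype (main 17). The calls over all genes were 1463 (main 1167) and 4543 (main 3215). Only the 2 groups gave 2 in the full knockout (1199 over all genes), and any genotype without the Δ17,18,92 group gave 8 (2726 over all genes). The cause was not tested. Leaving out each library in turn gave 0 to 1 in the full knockout, Δ19 and Δ17,18 hearts, 0 in the other 4, 2 to 4 for any genotype, 1 to 2 for miR-17, 0 for miR-18, 1 to 6 for miR-19 and 0 to 1 for miR-92. It gave 0 to 2 for the tail bud full knockout, 3 to 4 for any genotype there, 0 to 1 and 10 to 22 for the same in the rest, and 34 for wild type tissues. With replicate block the counts were 2 (heart any genotype), 4 (heart miR-19 term), 13 (rest any genotype) and 2 (rest miR-17 term); the heart-minus-rest count of Δ17,18,92 went from 8 to 3; the 34 wild type tissue calls stayed. Same-numbered libraries of wild type and a mutant correlated above 0.1 in every pair in 1 of 21 combinations. Of 66 single-gene calls, 384 of 424 values under other settings and 934 of 1164 under left-out libraries kept their side of the threshold, and 0 reversed.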
